A study of Homo sapiens with 45 samples.

Results

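The HOXD cluster is a row of 9 HOX genes on human chromosome 2, with the homeobox gene EVX2 beside HOXD13 at its centromeric end. Contacts of these 10 genes were taken from poised-enhancer capture Hi-C, in which DpnII fragments that carry poised enhancers are captured and the fragments ligated to them are sequenced. A cis pair of fragments was assigned to a gene when its captured fragment (the bait) or its other end lay within 1000 bp of either annotated end of that gene, and each listing was counted once. This gave 325 of the 152688 cis pairs listed. Of these, 3 contacts between captured fragments are listed from both baits, so 322 contacts are distinct, and counts of pairs below are counts of listings. Of these, 282 came from 23 baits at the genes themselves and 43 had a gene end only as the other end, seen from 19 baits elsewhere. HOXD10 had no bait of its own. The median length was 790 bp for baits at the genes and 5254 bp for other ends, so a partner called a fragment below can be several kb long. It can also hold more than 1 DpnII fragment. The other end chr2:176128814-176135490, for example, contains the 2 DpnII sites of the HOXD8 promoter.

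All cells were HNES1, a human embryonic stem cell line kept in the naive state on mouse feeder cells, passaged once without feeders, and moved to the primed state by withdrawal of the naive medium. They were harvested on day 5 of that transition. The control received DMSO. UNC6852, at 2.5 µM, is a PROTAC that degrades EED, a core subunit of Polycomb repressive complex 2 (PRC2). UNC1999, at 1 µM, inhibits the catalytic subunits EZH1 and EZH2. Each agent was present from 24 h before day 0, with the tankyrase inhibitor XAV939 in the transition medium of all groups. The doses differed, so the compounds are not compared in strength. Each condition held 15 libraries from 3 biological replicates in 2 labelled batches, and the table holds 1 pooled profile per condition.

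HOX genes encode homeodomain transcription factors that give cells their position along the body axis and the limbs. Genes at the HOXD13 end of the cluster act in posterior and distal structures, and genes at the HOXD1 end in anterior ones. In limb buds the cluster is known to sit between a pair of regulatory landscapes, a gene-poor one on the centromeric side and another on the telomeric side. Before lineage commitment the cluster is a classical PRC2 target that carries H3K27me3.

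Sequences are shown for 4 promoters, because their bases lie in baits whose contacts are described. Each is the 250 bases upstream of the annotated start, from RefSeq (GRCh38.p14), plus strand, 5′ to 3′. The first pair lies on either side of the point where the direction of contacts changed. Capitals mark GATC, the DpnII site, which reads the same on both strands. The HOXD12 promoter (chr2:176099545-176099794) had no GATC and lay wholly inside 1 bait. The HOXD11 promoter (chr2:176107030-176107279) had 2, at 187 and 15 bases before the start, and each was the first base of a bait, so 3 baits met in these 250 bases.
HOXD12: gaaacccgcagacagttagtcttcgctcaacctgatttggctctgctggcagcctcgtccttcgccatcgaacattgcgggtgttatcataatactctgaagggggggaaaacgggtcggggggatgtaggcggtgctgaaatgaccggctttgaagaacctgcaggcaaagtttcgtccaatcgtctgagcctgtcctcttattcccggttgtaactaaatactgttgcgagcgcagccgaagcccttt
HOXD11: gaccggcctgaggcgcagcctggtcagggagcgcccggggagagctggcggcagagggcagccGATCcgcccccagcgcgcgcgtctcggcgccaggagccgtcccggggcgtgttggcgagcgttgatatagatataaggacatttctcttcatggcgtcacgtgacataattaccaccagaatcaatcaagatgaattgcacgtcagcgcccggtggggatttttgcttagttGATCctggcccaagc

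The second pair shows the range of CpG content among the genes, with CG dinucleotides in capitals. The HOXD1 promoter (chr2:176188418-176188667) held 31, the most of the 9 genes in the promoter table, and the HOXD4 promoter (chr2:176151300-176151549) held 4, the fewest. Both lay wholly inside 1 bait. Over all 35116 promoters in the table the median was 11, with quartiles of 3 and 23, and 35.8% held at least 1 GATC. Of the 9 genes, 3 held GATC.
HOXD1: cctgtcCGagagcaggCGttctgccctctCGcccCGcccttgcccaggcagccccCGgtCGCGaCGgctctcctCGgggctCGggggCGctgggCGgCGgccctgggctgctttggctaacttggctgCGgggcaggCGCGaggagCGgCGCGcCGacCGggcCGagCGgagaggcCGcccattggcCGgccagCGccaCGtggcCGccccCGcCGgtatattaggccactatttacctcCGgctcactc
HOXD4: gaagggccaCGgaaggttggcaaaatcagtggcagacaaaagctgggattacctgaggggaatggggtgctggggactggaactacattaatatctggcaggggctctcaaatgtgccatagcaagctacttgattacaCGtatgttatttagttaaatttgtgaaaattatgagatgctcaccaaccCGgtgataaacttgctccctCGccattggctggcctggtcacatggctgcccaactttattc

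The values are CHiCAGO scores, which measure how far the reads joining 2 fragments exceed a background model that allows for distance. Here a score of 5 or more is a call. Only pairs that reached 5 in at least 1 profile are listed, so part of any loss between profiles follows from that selection, at these genes as at all others. The assay measures DNA contacts, so neither expression of the genes nor loss of H3K27me3 or EED was checked here. Read depth is unknown and replicates are pooled, so no spread between replicates can be given and no difference was tested. Intervals in square brackets are exact (Clopper-Pearson) 95% intervals on shares of pairs and cover counting error only. Pairs from 1 bait, or to 1 partner fragment, share reads and are not independent.

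Values for 3 profiles are given in the order DMSO, UNC6852, UNC1999. In DMSO 175 of the 325 pairs were called, 53.8% [48.3 to 59.4], where 42.4% of all cis pairs were. In UNC6852 158 were called, 48.6% [43.1 to 54.2], against 46.1% of all, and in UNC1999 155 were called, 47.7% [42.2 to 53.3], against 42.3% of all. The DMSO and UNC1999 shares at the HOXD genes thus lay above the background by more than that of UNC6852, whose interval includes it. The UNC1999 interval begins just under its background.

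The side on which partners lay changed along the cluster. Of the 315 pairs that led outside it, 219 had a partner on the telomeric side, 69.5% [64.1 to 74.6], and 96 on the centromeric side, while 10 pairs stayed inside. EVX2 had 27 centromeric partners and 1 telomeric, HOXD13 had 50 and 0, and HOXD12 had 11 and 2. HOXD11 had 3 centromeric and 17 telomeric partners. From HOXD10 to HOXD1, 208 of 213 outside pairs were telomeric, 97.7% [94.6 to 99.2], and HOXD10, HOXD8, HOXD4 and HOXD3 had no listed centromeric partner. The changeover thus fell between the baits of HOXD12 and those of HOXD11. HOXD10 had no bait, so only fragments captured elsewhere could be its partners. The centromeric region with most pairs held no bait and the main telomeric region held 13. The 2 sides were therefore not equally open to HOXD10, and its split by side follows in part from the capture.

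**Figure D1:**
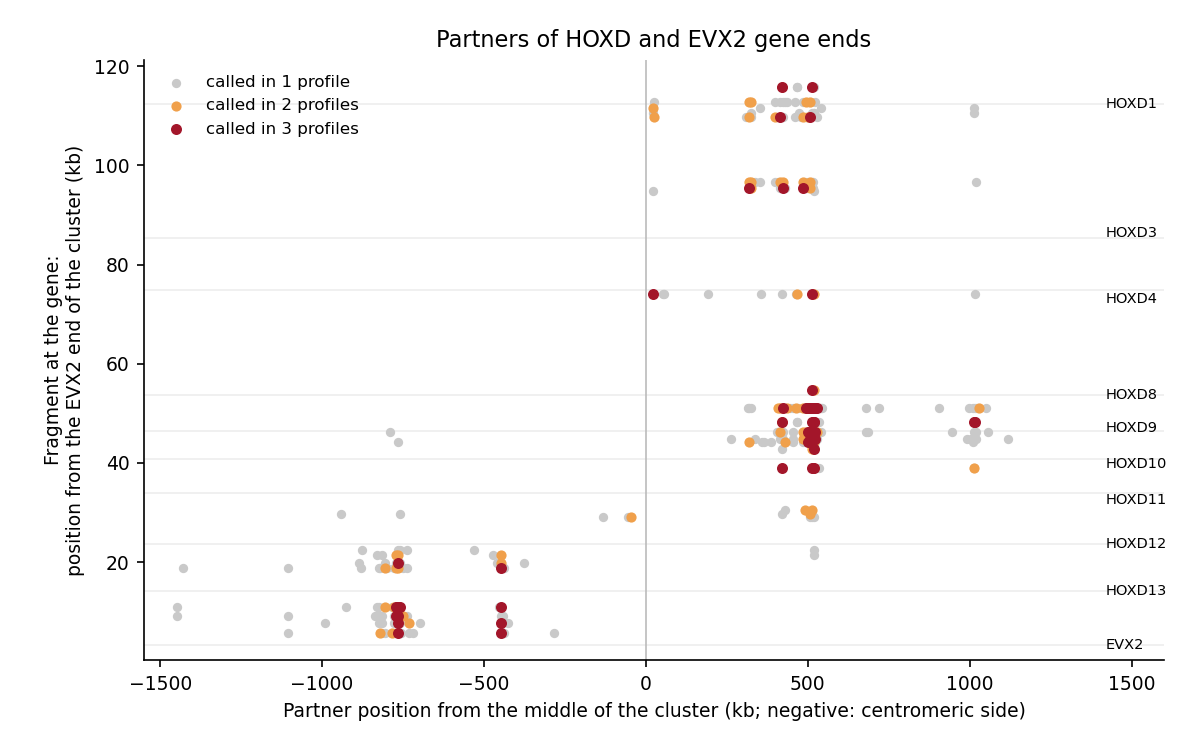
Each point is 1 pair, placed by the partner's distance in kb from the middle of the cluster (x) and by the position in kb of the fragment at the gene (y, from the EVX2 end), and coloured by the number of profiles in which it was called. The lower rows, from EVX2 to HOXD12, lead mostly to the left and the rows above to the right; 8 of the 325 pairs, with partners more than 1500 kb from the middle, are not drawn.

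Baits inside the cluster that do not reach the window around a gene end, the bait over the HOXD13 promoter among them, gave the same division. Their position chose no pair, although some enter the set through the other end, as chr2:176159259-176159847 does in a HOXD1 pair inside the cluster. Some lie directly beside baits at the gene ends, so they are not a separate sample of the cluster. All of these baits were examined after the values of the gene ends were known. The 7 such baits up to the end of HOXD12 had 58 centromeric and 5 telomeric partners, a telomeric share of 7.94% [2.63 to 17.6], and 1 of them, between EVX2 and HOXD13, had 3 of those 5. The 3 baits between HOXD12 and HOXD11 had 6 and 9, a share of 60% [32.3 to 83.7]. The 13 baits from HOXD11 onward had 2 and 201, a share of 99.0% [96.5 to 99.9]. Their DMSO calls were 23 centromeric and 1 telomeric in the first set and 0 and 85 in the last.

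The division was present in all 3 profiles. Over all 46 baits inside the cluster, those up to HOXD12 had telomeric shares of their outside calls of 3.12%, 5.06% and 4.29% in DMSO, UNC6852 and UNC1999. The intervals overlapped, at [0.381 to 10.8], [1.40 to 12.5] and [0.893 to 12.02]. Those from HOXD11 on had shares of 97.4% [94.0 to 99.1], 99.5% [97.4 to 100] and 97.9% [94.7 to 99.4]. Over the gene ends alone, the telomeric share of outside calls was 74.0% in DMSO (125 of 169), 71.2% in UNC6852 (109 of 153) and 69.5% in UNC1999 (105 of 151). Calls on the centromeric side numbered 44, 44 and 46 in the 3 profiles, and on the telomeric side 125, 109 and 105.

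**Figure D2:**
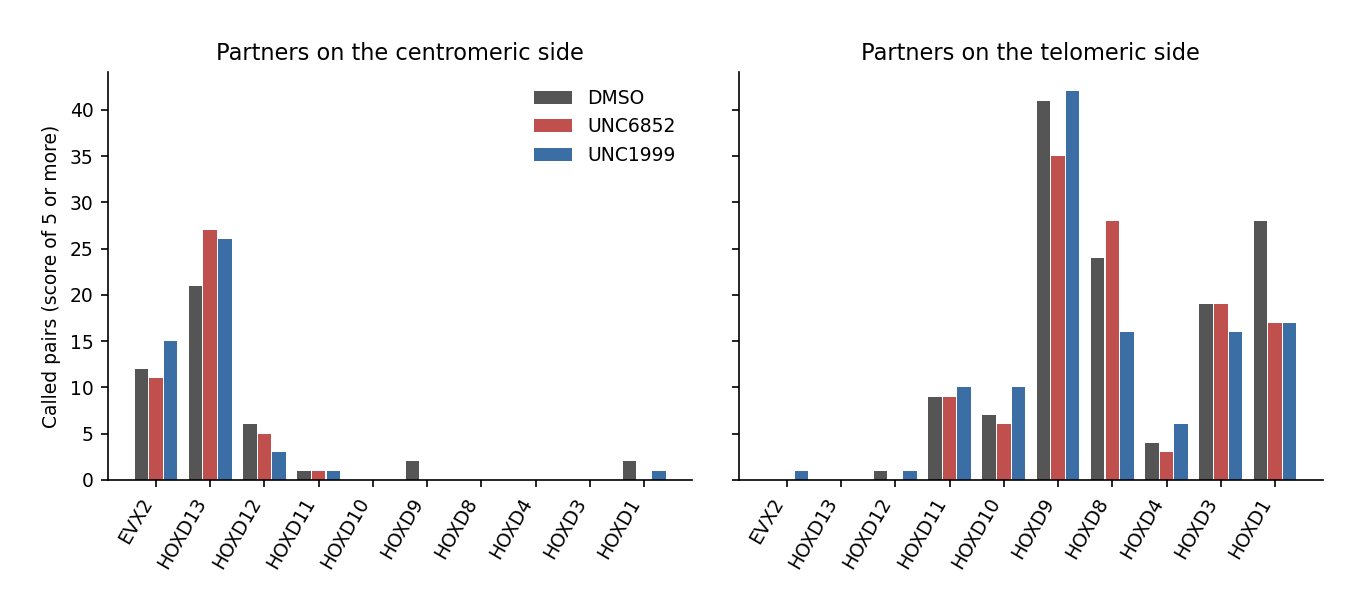
Bars give the number of called pairs (score of 5 or more) for each gene in the 3 pooled profiles, with centromeric partners in the left panel and telomeric partners in the right; genes run from EVX2 to HOXD1, and pairs shared by 2 genes stand under both. HOXD1 has 28 telomeric calls in DMSO and 17 in each treated profile, while HOXD13 has 21, 27 and 26 centromeric calls.

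EVX2 (chr2:176077472-176083962), an even-skipped type homeobox gene next to HOXD13, had 28 pairs, of which 12, 11 and 16 were called in DMSO, UNC6852 and UNC1999. Its strongest pair joined the bait at chr2:176082520-176083965 to a fragment at chr2:175364697-175370499, 716 kb away, with scores of 19.5, 16.9 and 23.6. Its mean asinh score (a log-like scale that accepts 0) was 1.63 in DMSO, and 1.93 and 1.98 after UNC6852 and UNC1999, the lowest DMSO mean of the 10 genes. Its 1 telomeric pair, to the TMEM198 and OBSL1 genes, scored 0, 0 and 5.87. Both of its baits had a higher mean in UNC1999 than in DMSO, by 0.39 and 0.34, and in UNC6852 they differed by -0.01 and 0.47.

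HOXD13 (chr2:176087487-176095944), a gene that acts in the forming digits, had 51 pairs with 22, 28 and 26 calls. The annotated span begins upstream of the promoter in the promoter table (chr2:176092471-176092720), so the bait over that promoter, chr2:176092288-176094056, lay beyond the window and is not among these. That bait had 8 pairs, all centromeric, with 3, 5 and 5 calls. The bait at chr2:176087493-176089431 reached the same fragment as EVX2 with scores of 15.4, 14.03 and 12.8, and the bait at chr2:176085715-176087318 did so with 9.86, 12.3 and 15.4. These pairs of one gene therefore ran in opposite directions after UNC1999. The 4 baits of HOXD13 differed among themselves more than the gene's mean changed. That at chr2:176085715-176087318 lay 0.50 above DMSO in UNC6852 and 0.36 above it in UNC1999 on the asinh scale, and that at chr2:176096870-176097632 lay -0.88 and -0.92 from it, with calls of 6, 3 and 2.

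HOXD12 (chr2:176099795-176102489), another posterior HOX gene, had 13 pairs with 7, 5 and 4 calls, and none was called in all 3 profiles. Its strongest pair again ended on chr2:175364697-175370499, 731 kb away, with 13.2, 8.04 and 3.16. The adjoining fragment, chr2:175358635-175364696, was reached from the same HOXD12 bait with 6.12, 0 and 10.4. The 2 neighbouring partner fragments were thus ordered oppositely in the treated profiles. A pair of the neighbouring HOXD12 bait, to chr2:175599202-175604537, 498 kb away, had 10.5, 0 and 0.542. The stronger of its 2 telomeric pairs by mean score, to chr2:176652840-176653724, had 7.30, 2.70 and 3.75.

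HOXD11 (chr2:176107280-176115679), which acts in the forearm and lower spine, had 22 pairs with 12, 11 and 11 calls. Of these, 9 had the gene only as their other end and 10 were shared with another of the genes, 9 of those with HOXD10, so much of its telomeric count is that of HOXD10. Its 3 baits, which meet in the promoter printed above, had 3 centromeric and 8 telomeric partners and 2 inside the cluster. One inside pair joined the bait at chr2:176106160-176107092 to the HOXD13 bait at chr2:176087493-176089431, 18.2 kb away, with 6.89, 5.24 and 0. All 6 pairs of that HOXD11 bait scored 0 in UNC1999, where 4 had been called in DMSO and 3 in UNC6852. The adjoining 172 bp bait went from 1 call in DMSO and 1 in UNC6852 to 3 in UNC1999. The third bait, chr2:176107265-176108507, had 3, 2 and 0 calls.

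HOXD10 (chr2:176116778-176119937), which acts in the hindlimb and its motor neurons, was reached only from elsewhere. Its 12 pairs were all telomeric, with 7, 6 and 10 calls. They could come only from fragments captured elsewhere, and the centromeric regions with most pairs held no such fragment. The strongest joined the fragment chr2:176113632-176119101, shared by HOXD11 and HOXD10, to the bait at chr2:176652840-176653724, 537 kb away, with 15.4, 12.7 and 13.6. HOXD10 had the highest mean asinh scores in both treated profiles among the 10 genes, 2.37 and 2.55, against 2.16 in DMSO. A single pair was higher by at least 1 in UNC6852 and 2 in UNC1999, and none was lower by that much.

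HOXD9 (chr2:176122719-176124937), a mid-cluster gene of the trunk and limb, had the most pairs of the 10 genes, 76, with 43, 35 and 42 calls. By number of pairs it ranked 23rd among the genes with at least 3 pairs. Its strongest pair joined the fragment chr2:176123953-176127695 to the bait at chr2:176652840-176653724 with 15.4, 20.4 and 22.1. A second, to the bait at chr2:176645442-176646700, had 18.0, 15.9 and 21.0. The HOXD9 pairs differed in both directions, with 19 lower and 13 higher by at least 1 in UNC6852 and 16 lower and 13 higher in UNC1999. Of its 3 baits, that at chr2:176123515-176123952 had 17, 6 and 16 calls, and the neighbouring chr2:176122089-176122670 had 11, 10 and 9. The third, chr2:176121299-176122088, had 6, 9 and 7.

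HOXD8 (chr2:176129705-176132695), another mid-cluster gene, had 41 pairs, all telomeric, with 24, 28 and 16 calls. Its bait, chr2:176128237-176128813, had the most pairs of any bait at the genes, 37. Its strongest pair, also the strongest of all 325 by mean score, led to chr2:176637695-176644816, 513 kb away in the long non-coding RNA gene LINC01117, with 25.6, 27.8 and 18.5. Another in LINC01117, to chr2:176645442-176646700, had 17.6, 16.5 and 10.4, and one in the adjoining LINC01116, to chr2:176632626-176637694, had 9.85, 18.4 and 13.9. A pair of fragments that are both captured can be listed from either bait. For HOXD8 and chr2:176554086-176555862, 426 kb apart, the 2 listings gave 9.76 and 6.83 in DMSO, 0.908 and 0.554 in UNC6852, and 3.11 and 3.37 in UNC1999. For HOXD8 and chr2:176553112-176553840 they gave 5.10 and 5.33, 0.141 and 0.230, and 0.0264 and 0.376. The 2 baits ordered the profiles alike for DMSO above both treatments, although the same ligation products can enter both listings. The third such pair, from HOXD9 to chr2:176645442-176646700, gave 4.12 and 0.406 in DMSO, 14.4 and 5.26 in UNC6852, and 8.34 and 2.76 in UNC1999, so the size of a score depended on which end was the bait.

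HOXD4 (chr2:176151550-176153226) and HOXD3 (chr2:176152529-176173098), which pattern the hindbrain and neck vertebrae, overlap and share 1 bait at chr2:176150516-176152390. That bait had 12 pairs, 9 of them telomeric, and these were all the pairs of HOXD4. To chr2:176645442-176646700 it scored 13.4, 18.4 and 10.3, and to chr2:176652840-176653724, a little farther, it scored 11.1, 0 and 5.41. The second was the lowest UNC6852 difference among pairs whose 3 scores averaged 5 or more, -3.10 on the asinh scale. Inside the cluster the same bait met chr2:176154511-176156039, 3.82 kb away within HOXD3, with 7.45, 6.03 and 5.22. HOXD3 had 40 pairs with 21, 21 and 18 calls, 12 of them from the shared bait and the rest from baits near its other annotated end. Its promoter in the promoter table (chr2:176157057-176157306) lies within the annotated span, beyond the window, and touched no bait. The bait next to that promoter, chr2:176157362-176159115, is not among these. It had 11 pairs, all telomeric, with 2, 6 and 5 calls.

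HOXD1 (chr2:176188668-176190907), at the telomeric and anterior end, had 54 pairs, 45 of them telomeric. On the telomeric side 28 were called in DMSO and 17 in each treated profile. Its 4 baits did not share one pattern. Calls at chr2:176186816-176187729 were 12, 10 and 3, at chr2:176187730-176188327 they were 6, 1 and 2, and at chr2:176189848-176190618 they were 6, 2 and 9. The bait that holds the printed promoter, chr2:176188328-176189847, had only 4 pairs, with 2, 2 and 1 calls. The strongest HOXD1 pair, to chr2:176637695-176644816 at 454 kb, was called in each profile, with 7.85, 9.52 and 9.06. Pairs lower by at least 1 on the asinh scale were 12 (22.2%) in UNC6852 and 14 (25.9%) in UNC1999, and pairs higher by at least 1 were 5 (9.26%) and 7 (12.96%). Over all cis pairs the lower shares were 17.1% and 18.7% and the higher shares 20.2% and 18.6%.

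**Figure D3:**
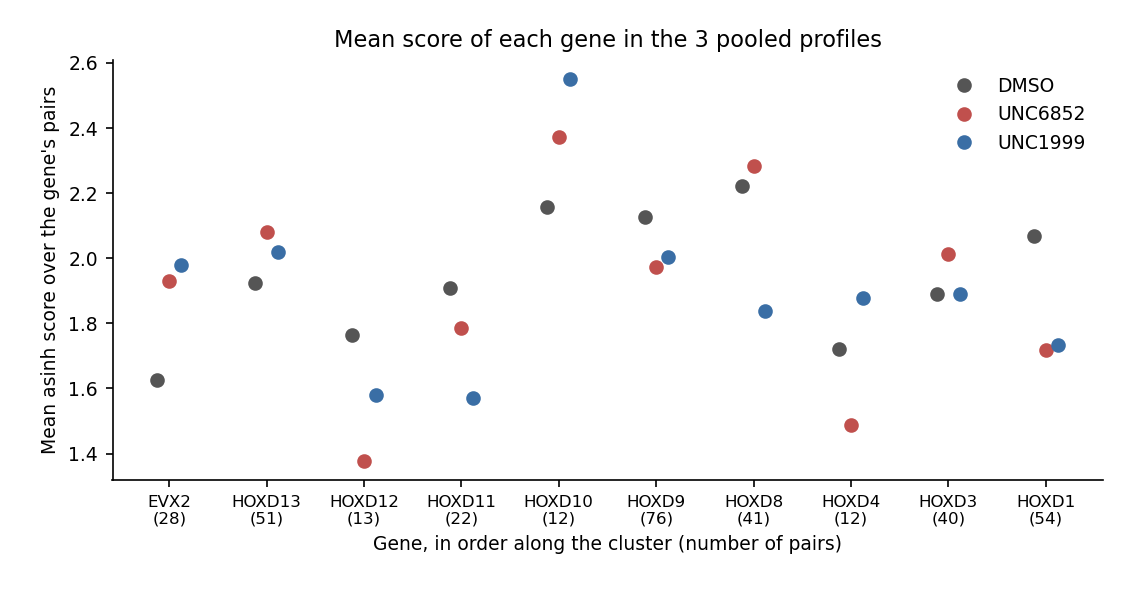
Points give the mean asinh score over each gene's pairs in the 3 pooled profiles, with the number of pairs under the gene; there is no error bar because replicates are pooled, and the axis does not start at 0. HOXD1, HOXD11, HOXD12 and HOXD9 have both treated means below DMSO, and EVX2, HOXD13 and HOXD10 both above it, as has HOXD3, whose UNC1999 mean is nearly equal to DMSO (1.89 in each). Some of these directions rest on 1 bait. In UNC1999 a HOXD11 bait with 6 pairs lies -2.10 from DMSO, and the other HOXD11 baits lie 1.22 and -1.82 from it. In UNC6852 a HOXD3 bait with 2 pairs lies 2.37 above DMSO, and the other HOXD3 baits lie -0.23, 0.21 and 0.04 from it.

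The partners gathered in a few regions. Partner fragments no more than 10 kb apart were joined, which gave 16 telomeric and 19 centromeric regions, of which 10 and 14 held 1 pair each. The 5 regions with most pairs held 207 of the 219 telomeric pairs and 82 of the 96 centromeric ones. The main telomeric region, chr2:176517246-176682063, lay 326 kb from the cluster, spans the long non-coding RNA genes LINC01116 and LINC01117, and held 161 pairs with 98, 86 and 82 calls. The nearest protein-coding gene was MTX2, a mitochondrial import component, at 179 kb. UNC6852 repeated (likewise scored at 5 or more) 52.0% [41.7 to 62.2] of its DMSO calls and UNC1999 44.9% [34.8 to 55.3]. It also held 13 baits, and 31 of the 161 pairs were seen from these.

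The main centromeric region, chr2:175295453-175403677, lay 674 kb away in a stretch with no annotated gene, 114 kb from ATP5MC3, an ATP synthase subunit gene. It held no bait, so its 60 pairs were all seen from the HOXD side, 33 of them from HOXD13, 17 from EVX2 and 7 from HOXD12. Calls there were 30, 30 and 28, and 8 pairs were called in all 3 profiles. Each treated profile repeated 40.0% [22.7 to 59.4] of its DMSO calls. The next centromeric region, chr2:175659437-175711242, 366 kb away and overlapping the uncharacterized gene LOC107985962, had 14 pairs with 7, 9 and 8 calls, 4 of them common to all profiles. The next telomeric region, chr2:177124524-177166107, 934 kb away over LOC105373760, had 22 pairs with 8, 11 and 9 calls.

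Single partner fragments recurred among neighbouring genes. The centromeric fragment chr2:175364697-175370499 was paired with 9 fragments at EVX2, HOXD13, HOXD12 and HOXD9. Its scores had medians of 9.86, 8.04 and 10.4, with ranges of 0.305 to 19.5, 0 to 16.9 and 1.88 to 23.6, and 5 of the 9 pairs were called in all 3 profiles. On the telomeric side chr2:176645442-176646700 had 16 listed pairs, from 15 fragments at 7 of the genes, and calls of 11, 14 and 9. Near it, the fragments chr2:176637695-176644816 and chr2:176652840-176653724 had 10 and 13 pairs with calls of 9, 7 and 6 and of 8, 8 and 9. All of these overlap LINC01117.

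The contacts were long. Their median distance was 517 kb, against 314 kb over all cis pairs, and 54.2% spanned more than 500 kb, against 27.2%. Between 500 kb and 2 Mb there were 170 pairs, of which 31, 18.2%, were called in all 3 profiles, where 4.13% of all cis pairs in this class were. Beyond 500 kb without an upper limit these were 31 of 176 pairs, against 3.86% of all. UNC6852 repeated 40 of the 86 DMSO calls in the class, 46.5% [35.7 to 57.6], and UNC1999 repeated 44, 51.2% [40.1 to 62.1]. For all cis pairs of the class these repeat shares were 19.9% and 18.0%. Of the 31 pairs called in all 3 profiles, 8 were centromeric, at 715 to 730 kb, and 23 telomeric. Apart from HOXD9 pairs at 1023 and 1024 kb, the telomeric ones spanned 501 to 537 kb, just past the lower edge of the class. The median distance in the class was 721 kb at the HOXD genes and 673 kb for all cis pairs, so distance is matched only coarsely. Over every distance the background was 31.4% for UNC6852, 29.3% for UNC1999 and 8.33% for calls in all 3. Of the 325 HOXD pairs, 47, or 14.5%, were called in all 3. The 6 pairs beyond 2 Mb were each called in 1 profile.

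**Figure D4:**
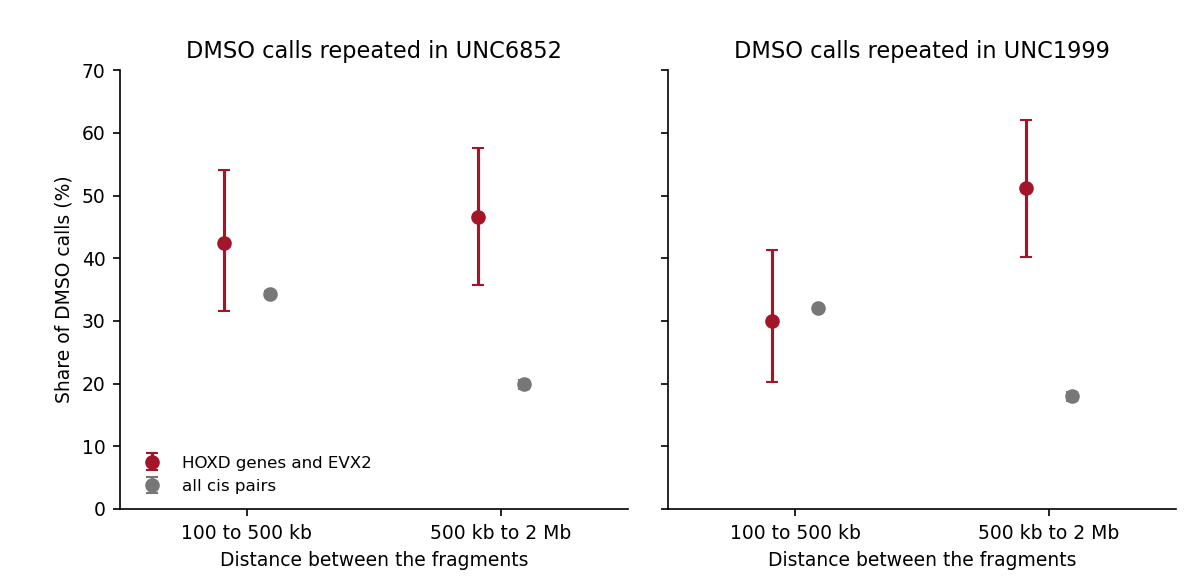
Points give the share of DMSO calls repeated in UNC6852 (left) or UNC1999 (right) for HOXD and EVX2 pairs and for all cis pairs, by distance, with exact 95% intervals that cover counting error only. At 100 to 500 kb the HOXD intervals include the share of all cis pairs, and at 500 kb to 2 Mb they lie above it. Most telomeric HOXD pairs called in all 3 profiles in the longer class span 501 to 537 kb, near its lower edge.

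Calls of the HOXD genes in that class were also somewhat stronger, with a median DMSO score of 6.74 against 5.97 for all other cis calls there. Among pairs with a DMSO score under 10, UNC6852 repeated 32.3% [21.2 to 45.1] of the HOXD calls and UNC1999 41.5% [29.4 to 54.4], where 16.3% and 14.5% of all others were repeated. Without the HOXD8 bait the shares were 41.9% and 50.0%. The telomeric pairs of the class had shares of 52.8% [38.6 to 66.7] and 60.4% [46.0 to 73.5], and the centromeric pairs 36.4% [20.4 to 54.9] for each compound, so the intervals of the sides overlapped. At 100 to 500 kb the HOXD shares were 42.5% [31.5 to 54.1] and 30.0% [20.3 to 41.3], and those of all cis pairs were 34.3% and 32.0%. The 2 treated profiles shared calls to a like degree in the 500 kb to 2 Mb class: 48.9% [38.1 to 59.8] of the UNC6852 calls recurred in UNC1999 and 46.7% [36.3 to 57.4] of the UNC1999 calls in UNC6852. Over every distance these shares were 39.9% and 40.6% at the HOXD genes and 29.1% and 31.7% for all cis pairs.

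The other HOX clusters reached less far. Pairs beyond 500 kb made up 16.6% of 277 pairs at the HOXA genes and EVX1, 12.3% of 235 at the HOXB genes and 3.33% of 420 at the HOXC genes. Together they had 77 pairs between 500 kb and 2 Mb, 4 of them called in all 3 profiles. UNC6852 repeated 22.7% [7.82 to 45.4] of their 22 DMSO calls in the class and UNC1999 18.2% [5.19 to 40.3]. Over all distances UNC6852 repeated 44.0% [36.5 to 51.7] of the DMSO calls at the HOXD genes, 59.3% [50.7 to 67.5] at the HOXA genes and EVX1, 42.9% at HOXB and 44.3% at HOXC. For UNC1999 the shares were 40.0% [32.7 to 47.7], 47.9%, 41.9% and 44.8%. Pairs called in all 3 profiles made up 14.5%, 19.9%, 12.8% and 17.4% in the same order, so over all distances the HOXD share was not the highest.

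The differences from DMSO, taken over all 325 pairs on the asinh scale, were centred near 0. The median was 0 for UNC6852, with quartiles of -0.70 and 0.64, and -0.02 for UNC1999, with quartiles of -0.88 and 0.61. Over all cis pairs the medians were 0.02 and 0. In UNC6852 60 pairs (18.5%) were lower and 54 (16.6%) higher by at least 1, and in UNC1999 68 (20.9%) were lower and 56 (17.2%) higher. These shares are near those of all cis pairs given above and are not read as a difference. Of the 10 genes, 5 had a higher and 5 a lower mean for each compound. Both comparisons share the DMSO profile, so an unusual DMSO score moves both.

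**Figure D5:**
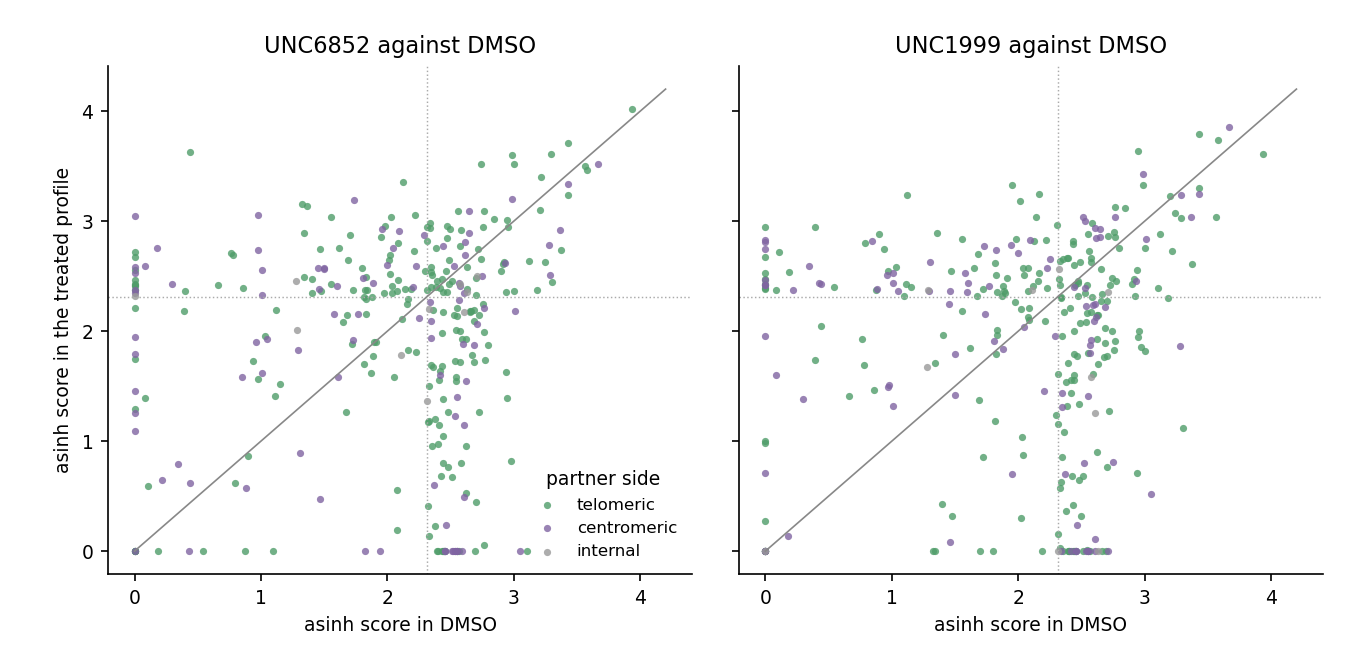
Each point is 1 of the 325 pairs, with its asinh score in DMSO (x) against that in UNC6852 (left) or UNC1999 (right), coloured by partner side; the line marks equal scores and dotted lines mark the call threshold of 5. The lower left corner is empty in part because only pairs that reach 5 in some profile are listed; telomeric and centromeric pairs spread on both sides of the line.

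Pairs called in 1 profile alone numbered 75, 65 and 69, and 16 were called in both treated profiles but not in DMSO. These were 23.1%, 20%, 21.2% and 4.92% of the pairs, against 25.02%, 27.7%, 24.8% and 5.09% of all cis pairs. HOXD9 had 19 of the DMSO-only pairs and 7 of the 16. HOXD1 had 18 of the DMSO-only pairs and, like HOXD3 and HOXD4, none of the 16. Among the 109 pairs whose 3 scores averaged 5 or more, the highest difference for UNC6852 was at HOXD9. Its bait at chr2:176122089-176122670 and the fragment chr2:177149732-177155024, 1030 kb away in LOC105373760, scored 0.454, 18.8 and 3.80. For UNC1999 the highest was also at HOXD9, from chr2:176121299-176122088 to chr2:176637695-176644816, with 1.37, 4.44 and 12.8. The lowest for UNC1999 was from the adjoining HOXD9 bait to chr2:176645442-176646700, with 13.6, 5.75 and 1.37. Neighbouring HOXD9 baits and neighbouring partners over LINC01117 thus held both extremes for UNC1999. A pair can reach a mean of 5 through 1 high profile, so part of these large differences follows from that filter.

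Genes around the cluster were thinly covered, and 10 of 18 listed neighbours had any pair. Together they had 81 pairs with 32, 34 and 28 calls. Over these pairs the mean asinh difference from DMSO was -0.05 in UNC6852 and -0.20 in UNC1999. By gene, the mean was higher than in DMSO for 7 of the 10 in UNC6852 and for 3 in UNC1999. The pairs of MTX2, SP3, DLX2, IFT70B and PDE11A were called in UNC6852 alone. Their higher means there thus follow from the selection of listed pairs, and the counts of genes are not read as a direction. SP9, a zinc finger gene, had 16 calls in each profile, and IFT70A, an intraflagellar transport gene, had 1, 3 and 8. LNPK, which shapes the endoplasmic reticulum, had 7 pairs with 6, 2 and 1 calls, and 1 of them, to HOXD11, scored 5.78 in DMSO and 0 in both treated profiles. Of 9 genes for HOX cofactors of the MEIS, PBX and PKNOX families, 6 had pairs, with 36, 34 and 29 calls among 70 pairs. The 3 genes with the mean asinh scores nearest to those of the HOXD set (2.00, 1.95 and 1.89), among 558 genes with at least 20 pairs, were TLL1, ZNF385A and LDAF1, at Euclidean distances of 0.05, 0.06 and 0.07 over the 3 profiles.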

How the data were processed

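Each deposited value is a CHiCAGO score for a bait and another fragment in 1 pooled column per condition, per the file headers and the labels; the build is GRCh38, per the submitters' processing notes. The aligner and the versions and settings of all tools are not given in the sources used here. Scores were never negative, every listed pair reached 5 in at least 1 column, and columns were not scaled to each other. Single libraries were not used here, and no column was left unmapped.

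Gene ends came from RefSeq (GRCh38.p14), matched by symbol for all 10 genes. The table gives no strand, so both ends were used. The cluster was the span of the genes plus 1000 bp on each side. A partner with a midpoint below it was centromeric and one above it telomeric. Differences were taken between asinh scores. Items to name were drawn from all 10 genes, the strongest pair of each gene on each side, the 5 lowest and 5 highest differences per compound among the 109 pairs whose mean score reached 5, pairs beyond 500 kb called in all 3 profiles, the 5 regions with most pairs per side, and the nearest 3 genes by mean score. Other pairs named, baits off the gene ends, single partner fragments and the tables for the 500 kb to 2 Mb class were chosen after their values were seen. The genes and lists themselves were chosen with earlier results of these data known. Alternatives were windows of 0 and 5000 bp, thresholds of 7 and 10, pairs at least 20 kb apart, omission of the bait with most pairs, and captured pairs counted once. Others were quantile-normalized scores, the natural log of score + 1, a mean score of 5 or more, and merged regions. The calculation was tested on simulated data. Python 3.11.15, numpy 2.4.6, pandas 2.3.3, scipy 1.17.1 and matplotlib 3.10.9 were used.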

Additional observations from a re-analysis of the deposited data

Results flagged for a closer look

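Pairs between chromosomes were used in no comparison. Of 175 such pairs with an end at a HOXD gene or EVX2, DMSO had 45 calls, UNC6852 61 and UNC1999 69, so the treated profiles held more than the control. Each pair was called in 1 profile only, and the highest score was 15.2. Over all 281836 pairs between chromosomes, calls were 84499, 96770 and 101879, which is 1.15 and 1.21 times DMSO, against 1.36 and 1.53 times at the HOXD genes. The difference from all such pairs was not tested.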

How the results depend on the processing

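The telomeric share of outside pairs was 69.5%, and it was 63.5% with gene ends overlapped directly (0 bp), 74.8% among pairs whose mean score reached 5, and 45.7% (16 of 35) when each merged region counted once. The share of DMSO calls repeated in UNC1999 was 40.0%, 50.9% at 0 bp and 52.2% at a score of 10. The median UNC1999 difference of -0.02 became 0.014 at 0 bp and 0.0031 within 5000 bp. The cause was not tested. The share repeated in UNC6852 ranged from 37.5% to 50.9%, within the counting interval of its reported value, and the HOXD1 mean differences stayed below 0 under the 5 alternatives that change its pairs or scores, from -0.42 to -0.11 for UNC6852 and from -0.54 to -0.14 for UNC1999. Quantile normalization moved the median of all cis pairs by less than 0.1. Leave-one-out fits could not be made, and depth could not be weighed, since libraries are pooled. No paired analysis was possible because each condition is 1 pooled column and no test was run.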
